A study of Zea mays with 24 samples.

Results

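*ZmbHLH116* (GRMZM2G042895) is 1 gene of the 37467 gene identifiers listed in RNA-seq of maize leaves, and it was followed here by its identifier through all 24 libraries. The deposited annotation describes its product as a partial bHLH transcription factor and places it with the transcription factor MYC2 of the jasmonate pathway, and the RefSeq gene table for the assembly Zm-B73-REFERENCE-NAM-5.0 names it bHLH116. The gene was chosen by the study from its read counts in the W22 background, as a candidate downstream gene of ZmNF-YA1. Its values in that background are therefore given as a description with no test, and tests are given only for the B104 and DH4866 backgrounds. For this gene the paper also reports promoter enrichment by ChIP-qPCR, CCAAT motifs in the promoter and binding of ZmNF-YA1 in yeast. It describes the gene as raised by drought, and as raised too little in a *ZmNF-YA1* mutant.

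The 24 libraries formed 3 sets of 8, each with a wild-type inbred line and a derived group under normal watering and under drought, and 2 libraries in each of the 4 groups. The W22 set compared the inbred W22 with *zmnf-ya1*, which carries a *Mu* transposon insertion in *ZmNF-YA1* in the W22 background. The B104 set compared B104 with *ZmNF-YB16* OE, an overexpression line in B104. The DH4866 set compared DH4866 with libraries labelled *ZmNF-YA1* OE, and the study's overexpression construct was driven by the stress-inducible *rd29A* promoter of Arabidopsis. The mutant libraries came from the allele m67 alone and those of *ZmNF-YB16* OE from the line L187 alone, so a line and its gene change cannot be told apart. The lines behind the libraries labelled *ZmNF-YA1* OE are not given in the sources used here. The labels give leaves at the V4 stage for all libraries. The study's methods instead describe ear leaves of field plants after pollination for the B104 set. Plants of the W22 set were grown in pots, and in both of these sets leaves of several plants were pooled for a library.

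Basic helix-loop-helix (bHLH) proteins bind DNA as dimers. The helix-loop-helix part joins the partners, and the basic part contacts the E-box, of which the G-box is a well-known form. MYC2 and its relatives are the bHLH proteins best known in jasmonate signaling, where JAZ proteins hold them inactive until the hormone triggers JAZ breakdown. NF-Y is a trimer with 1 subunit each from the A, B and C families, and the A subunit gives it its specificity for the CCAAT box of promoters.

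For each gene the authors deposited an expected count, RSEM's estimate of the reads of that gene, and an FPKM value, which scales these reads by transcript length and library size. Libraries of the W22 set summed to 20863134 to 21178130 counts and those of the DH4866 set to 20696356 to 21289601. Libraries of the B104 set were shallower, at 3429219 to 5608847, so *ZmbHLH116* was measured with fewer reads in the B104 set. All 5 leaf markers, among them PEPC and PPDK of the C4 cycle, were detected in every library, and their lowest FPKM was 143 in the B104 set and 1793 in the W22 set. The zein genes, 5 kernel storage protein genes, summed to an FPKM of 13.0 to 38.1. The RNA came from whole leaves, so fewer cells of a type and less RNA per cell cannot be told apart. No source says that the 2 libraries of a group came from separate plantings, so the p-values below measure the spread between these libraries, which may be technical.

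The reads of *ZmbHLH116* were not divided with another gene to any extent that the files show. Its expected count was a whole number in 21 libraries and 0.01 from one in the other 3, and the files list 1 transcript of 1230 bases for it in every library. *ZmNF-YA1* (GRMZM2G000686), the gene named in the labels of 2 of the 3 derived groups, served as a check of the labels. Under normal conditions the W22 libraries held 278 and 298 of its reads and the mutant libraries 91 and 107, and drought libraries held 121 and 145 against 110 and 102. The paper states that m67 lacked *ZmNF-YA1* transcripts, yet reads of the gene remained in every mutant library. Whether they came from intact transcripts was not tested. The libraries labelled *ZmNF-YA1* OE had 278 and 260 counts against 236 and 247 in DH4866 under normal conditions, and 133 and 136 against 146 and 150 under drought. The mutant libraries lay below W22 in both conditions, and the difference passed under normal conditions (log2 fold change -1.16, adjusted p = 3.3e-06, edgeR) but not under drought (-0.30, adjusted p = 0.135, edgeR). Those labelled *ZmNF-YA1* OE were not shown to differ from DH4866 (edgeR log2 fold change 0.10, SE 0.09, adjusted p = 0.544 under normal conditions, and -0.14, SE 0.11, adjusted p = 0.424 under drought). In the B104 set *ZmNF-YA1* had 482 and 250 counts in B104 and 269 and 231 in *ZmNF-YB16* OE under normal conditions, and 157, 142, 131 and 131 under drought. Its log2 fold change in *ZmNF-YB16* OE against B104 was -0.82 (SE 0.10, adjusted p = 1.12e-06, edgeR) under normal conditions, a change of less than 1. Under drought it was -0.22 (SE 0.12, adjusted p = 0.199, edgeR). The level of *ZmNF-YB16* was not analysed here, so the label of that line was not checked by its own gene.

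In W22 drought libraries *ZmbHLH116* was more abundant than in any other group. Ordered by mean FPKM, W22 under drought stood first at 103.7 ± 1.05 (SD, n = 2 here and for each group below). It was followed by *zmnf-ya1* under normal conditions at 43.2 ± 1.99, the libraries labelled *ZmNF-YA1* OE under drought at 38.5 ± 0.28, *zmnf-ya1* under drought at 22.02 ± 0.47, DH4866 under drought at 16.5 ± 1.62 and B104 under drought at 15.1 ± 3.29. The lower places were held by the libraries labelled *ZmNF-YA1* OE under normal conditions at 12.1 ± 1.32, W22 under normal conditions at 10.3 ± 0.73, B104 under normal conditions at 4.37 ± 0.23, *ZmNF-YB16* OE under drought at 4.08 ± 0.28, DH4866 under normal conditions at 3.39 ± 0.32 and *ZmNF-YB16* OE under normal conditions at 2.13 ± 0.75. The highest group was 48.7 times the lowest in FPKM. In 3 places of this order neighbours overlapped, namely DH4866 with B104 under drought, B104 under drought with the normal libraries labelled *ZmNF-YA1* OE, and B104 under normal conditions with *ZmNF-YB16* OE under drought. All 12 groups kept their place when TMM-normalized CPM, counts scaled to library size, replaced FPKM. The sets were normalized apart and differ in platform, depth and plant material, so levels across them stand side by side only.

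**Figure D1:**
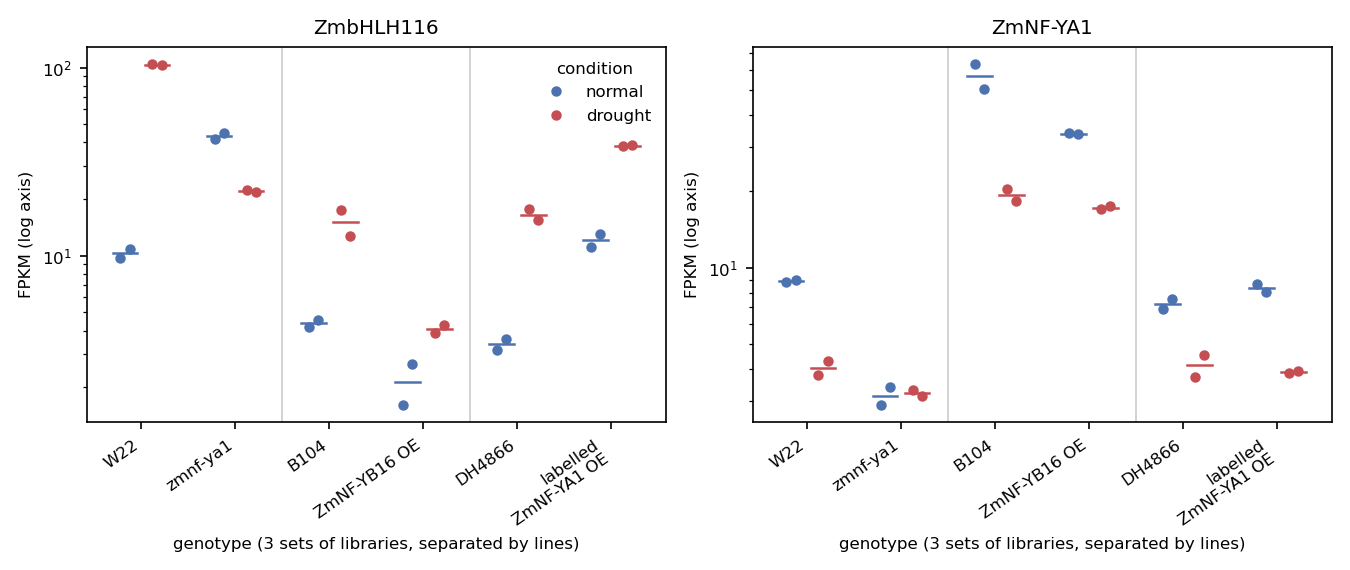
FPKM of *ZmbHLH116* (left) and *ZmNF-YA1* (right) on log axes, by genotype; each point is 1 library, the short line is the mean of 2, blue is normal watering and red is drought. For *ZmbHLH116* the drought libraries lie above the normal ones in 5 of 6 genotypes, and in *zmnf-ya1* they lie below.

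The rank of *ZmbHLH116* ran from below the middle of the listed genes to near their top. By FPKM it ranked 862 and 879 among the 28492 and 28456 genes listed in the 2 W22 drought libraries. In the *ZmNF-YB16* OE libraries under normal conditions it ranked 19041 of 27421 and 16926 of 27066. Within the bHLH family of 39 genes that the deposited annotation names, it held the first place by mean FPKM in 5 groups. These were both groups of *zmnf-ya1* and the drought groups of the libraries labelled *ZmNF-YA1* OE, of W22 and of DH4866. Its lowest place in the family was 13, in *ZmNF-YB16* OE under normal conditions. In a fuller list of 80 bHLH genes, which adds those named bHLH in the RefSeq table and was chosen after the values were seen, it was first only in W22 under drought, held places 3 to 6 in the other 4 of those groups, and was lowest at place 24. Only 2 genes were in both sources of that list.

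In the W22 background drought and the *zmnf-ya1* allele each went with a higher level of *ZmbHLH116* than in unstressed W22, and the level with both was lower than with either alone. W22 had 250 and 276 counts under normal conditions and 2680 and 2644 under drought, an FPKM of 9.78 and 10.8 against 104.4 and 102.9. The mutant had 1083 and 1159 counts under normal conditions and 577 and 559 under drought, an FPKM of 41.8 and 44.7 against 22.4 and 21.7. The 4 groups did not overlap, and the order of normal and drought libraries was opposite in the 2 genotypes. As log2 fold changes with no test, drought against normal was 3.48 (SE 0.07) in W22 and -1.20 (SE 0.07) in *zmnf-ya1*. The mutant against W22 was 2.47 (SE 0.07) under normal conditions and -2.21 (SE 0.06) under drought, and the drought responses of the 2 genotypes differed by -4.68 (SE 0.10). These comparisons share libraries, so they are not separate pieces of evidence. By size, the difference in drought response had place 203 from the lowest of 24159 genes, the mutant against W22 had place 490 from the highest under normal conditions and place 234 from the lowest under drought, and the rise in W22 had place 897 from the highest. The TMM factors of this set ran from 0.834 to 1.13. Left out, they would move every gene by -0.40 in the mutant against W22 under normal conditions, and *ZmbHLH116* then stood at 2.07.

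**Figure D2:**
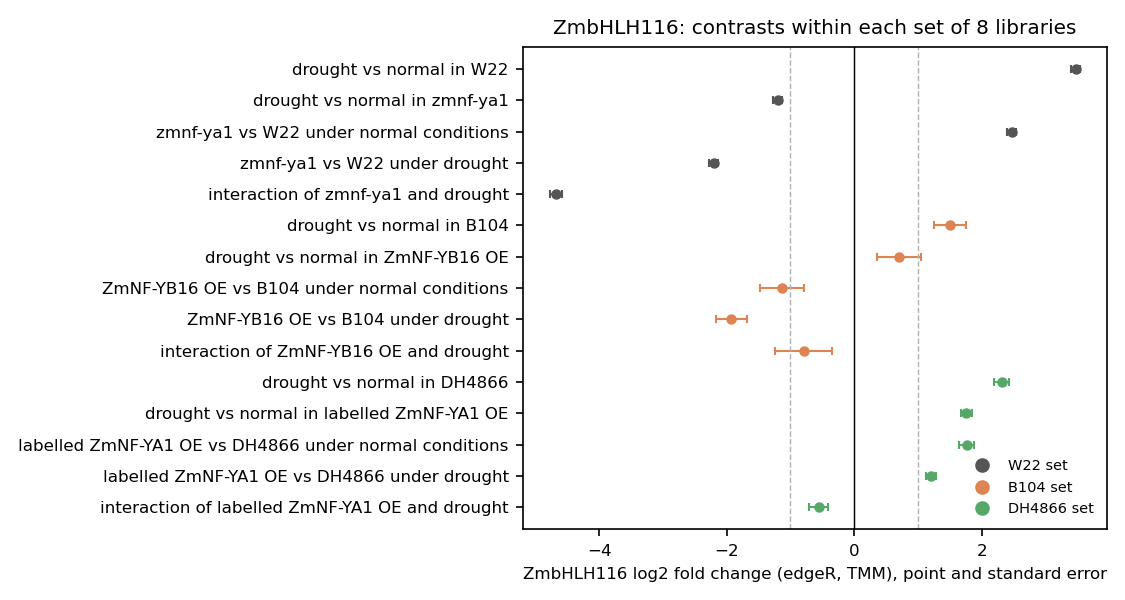
Log2 fold change of *ZmbHLH116* in 15 contrasts, 5 within each set; points are edgeR estimates, bars are 1 standard error, and dashed lines mark a change of 1. Drought contrasts lie right of 0 except in *zmnf-ya1*, which lies at -1.20.

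In the DH4866 set, which the paper does not mention in its choice of the gene, drought raised *ZmbHLH116* in both genotypes. DH4866 had 81 and 93 counts under normal conditions and 461 and 400 under drought, an FPKM of 3.16 and 3.61 against 17.7 and 15.4. The libraries labelled *ZmNF-YA1* OE had 286 and 330 counts under normal conditions and 993 and 1000 under drought, an FPKM of 11.2 and 13.0 against 38.3 and 38.7. All drought libraries lay above all normal libraries of the same genotype, and the labelled libraries lay above DH4866 in each condition. Drought against normal gave 2.31 on the log2 scale (SE 0.12, adjusted p = 3.27e-10, edgeR) in DH4866, where 26.9% of all genes tested were called too. A call needed a change of more than 1 on the log2 scale in either direction and an adjusted p under 0.05. In the libraries labelled *ZmNF-YA1* OE it gave 1.76 (SE 0.08, adjusted p = 2.4e-10, edgeR), with 24.2% of all genes passing.

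The libraries labelled *ZmNF-YA1* OE held more *ZmbHLH116* RNA than DH4866, whereas a difference in *ZmNF-YA1* RNA was not shown. The log2 fold change was 1.76 (SE 0.12, adjusted p = 1.95e-07, edgeR) under normal conditions, at place 314 from the highest of 24604 genes. Under drought it was 1.21 (SE 0.08, adjusted p = 2.14e-07, edgeR), at place 537. Genes passing in these 2 comparisons were few, 2.93% and 3.18% of those tested. The rise with drought was smaller in the labelled libraries than in DH4866 by 0.56 on the log2 scale (log2 difference -0.56, SE 0.15, 95% interval -0.88 to -0.23, adjusted p = 0.0190, edgeR). That difference was under 1 and so was not a call, and 4.97% of genes passed both thresholds. It also had an adjusted p of 0.0819 with DESeq2 and 0.0749 with limma, and of more than 0.05 in 5 of the 8 fits that left out 1 library (0.0147 to 0.0943).

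In the B104 set *ZmbHLH116* was read least often. B104 had 28 and 19 counts under normal conditions and 116 and 83 under drought, an FPKM of 4.20 and 4.53 against 17.4 and 12.8. *ZmNF-YB16* OE had 11 and 15 counts under normal conditions and 26 and 27 under drought, an FPKM of 1.60 and 2.66 against 3.88 and 4.28. Drought libraries again lay above normal ones in each genotype, and *ZmNF-YB16* OE lay below B104 in each condition, the reverse of the order in the DH4866 set. Counting error was large here, as 11 counts have an exact Poisson 95% interval of 5.49 to 19.7 and 28 counts one of 18.6 to 40.5. The intervals cover counting error only.

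Drought raised *ZmbHLH116* in B104 by 1.502 on the log2 scale (SE 0.25, adjusted p = 4.1e-05, edgeR), in a comparison where 25.1% of all genes passed. In *ZmNF-YB16* OE the value was 0.71 (SE 0.34, adjusted p = 0.0933, edgeR), which did not pass, with 23.2% of genes passing. It was 0.36 without the first normal library of *ZmNF-YB16* OE and 1.07 without the second. The 2 responses were not shown to differ, at -0.79 (SE 0.44, 95% interval -1.72 to 0.13, adjusted p = 0.251, edgeR; 6.74% of genes passed), and -1.16 and -0.45 without the same libraries. Levels of the leaf markers also differed by condition in this set. Their FPKM summed to between 19917 and 20866 in the normal libraries and to between 4674 and 6584 in the drought libraries, and the part of this difference in the values of *ZmbHLH116* was not tested.

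*ZmNF-YB16* OE had less *ZmbHLH116* than B104. Under drought the log2 fold change was -1.93 (SE 0.24, adjusted p = 2.78e-06, edgeR), at place 669 from the lowest of 21970 genes, where 11.6% of genes passed. Under normal conditions it was -1.13 (SE 0.35, adjusted p = 0.0178, edgeR), where 11.9% passed. The call under normal conditions was lost with DESeq2 (adjusted p = 0.104), with limma (-0.80), and without either normal library of B104 or the first normal library of *ZmNF-YB16* OE, while the call under drought was kept in every one of these.

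In each of the 3 inbreds, all but 1 of the other tested bHLH genes of the deposited annotation had a smaller rise with drought than *ZmbHLH116*, or a fall. In the fuller list 3 of 49, 2 of 32 and 3 of 48 others had a larger rise in W22, B104 and DH4866. The largest in W22 was 4.06, for GRMZM2G119823 (bHLH108). The list from the deposited annotation leaves out this gene, MYC4, the MYC2-like gene GRMZM2G001930 and GRMZM2G301089, which are all described below. W22 is also the background from which the study chose *ZmbHLH116*. Of the 38 other genes that the deposited annotation assigns to the family, 19, 14 and 16 passed the filter on low counts in the W22, B104 and DH4866 sets. In W22, 2 of 19 rose and 3 fell, against 17.5% and 14.4% of all genes. In B104, 2 of 14 rose and 1 fell, against 12.1% and 13% of all genes, and in DH4866, 1 of 16 rose and 2 fell, against 14% and 12.9%. In the derived lines 1 rose and 3 fell in *zmnf-ya1* (12.1% and 13.2% of all genes), 2 rose and 2 fell in *ZmNF-YB16* OE (11.3% and 11.9%), and 2 rose and 0 fell in the libraries labelled *ZmNF-YA1* OE (12.2% and 12%). The median log2 fold change of the tested members was -0.06 in W22, -0.39 in B104 and -0.41 in DH4866, beside a median within 0.01 of 0 over all genes. These shares rest on few members. In the fuller list 24.5% of the others tested rose and 20.4% fell in W22, 9.38% and 21.9% in B104, and 18.8% and 6.25% in DH4866, with medians of -0.06, -0.41 and 0.07. Under drought no tested member of either list had a lower log2 fold change than *ZmbHLH116* in *zmnf-ya1* against W22 (-2.21, SE 0.06, no test). The lowest of the others in the fuller list was almost the same, -2.20 (SE 0.13) for bHLH108.

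**Figure D3:**
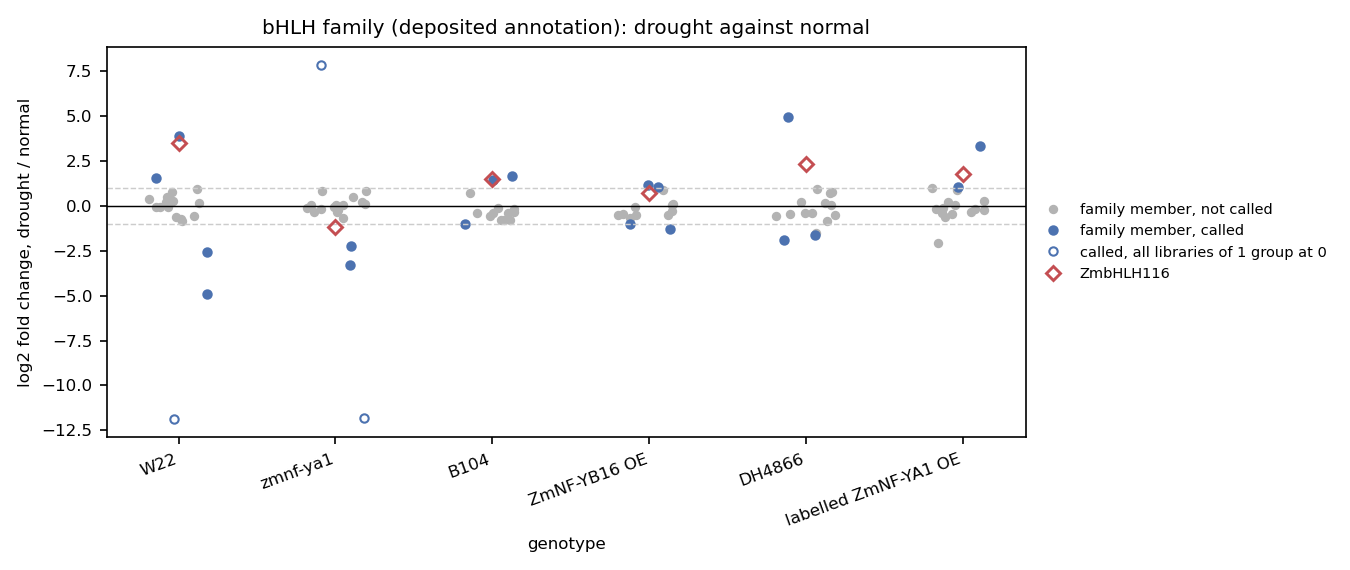
Log2 fold change of drought against normal in the 6 genotypes for *ZmbHLH116* (red diamonds) and for the other tested genes of the bHLH family as listed by the deposited annotation, without the fuller list (circles; blue where called, open where all libraries of 1 group were at 0). The diamond is near the top of the column in each inbred and at -1.20 in *zmnf-ya1*.

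Among the members that moved furthest was GRMZM2G006631, annotated as bHLH96-like, a gene with few reads. It had 5 and 0 counts in W22 under normal conditions and 33 and 37 under drought, on the log2 scale a change of 3.87 (SE 0.59, adjusted p = 7.89e-05, edgeR). This value was 8.08 without the first normal library of W22 and 2.91 without the second, and it passed in both. In DH4866 it had 1 and 0 counts against 20 and 18, a ratio of 38.2 with a counting interval of 6.46 to 1549.7. Unlike *ZmbHLH116*, it was also higher under drought in *zmnf-ya1*, with 0 and 0 counts against 29 and 29, which is at least 8.30-fold by a floor of 3 counts per library. GRMZM2G013688, annotated as bHLH14-like, had 5 and 4 counts in W22 under normal conditions and 15 and 9 under drought (log2 fold change 1.53, SE 0.56, adjusted p = 0.0273, edgeR, and adjusted p = 0.154 with DESeq2). Its call was also lost without either normal library or the first drought library of W22.

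The largest fall in the family was that of GRMZM2G058451, annotated as a putative HLH DNA-binding protein. It was the most abundant family member in W22 under normal conditions, with 498 and 558 counts, and had 0 in both drought libraries, at least 159.9-fold lower by the same floor. In *zmnf-ya1* it went from 389 and 386 counts to 0 and 0, at least 150.4-fold lower. Its counts in the other sets never fell below 137, and its log2 fold change was -1.03 (SE 0.11, adjusted p = 1.23e-07, edgeR) in B104 and -0.53 (SE 0.08, adjusted p = 4.43e-05, edgeR) in DH4866. The fall in B104 no longer passed with library size alone as scaling (-0.74), with limma (-0.79), or without the first normal (-0.96) or the first drought (-0.91) library of B104. GRMZM2G067654, annotated as bHLH82-like, fell in DH4866 from 17 and 10 counts to 4 and 3 (log2 fold change -1.90, and adjusted p = 0.0781 with DESeq2), and lost its call without the first normal or the second drought library.

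GRMZM2G016039 and GRMZM2G166642 share 1 annotation, and their reads may be divided between them. GRMZM2G016039 had 131 and 74 counts in W22 under normal conditions and 6 and 0 under drought, and 68 and 68 against 42 and 2 in DH4866. GRMZM2G166642 had 13 and 61 against 60 and 53 in W22, and rose in B104 from a mean CPM of 4.96 ± 1.41 to 14.9 ± 3.89 (SD, n = 2), a log2 fold change of 1.65. Replicates of 1 group differed as much as 42 and 2, so these 2 genes are given as uncertain. GRMZM2G101350 rose in B104 from 61 and 36 counts to 194 and 201, a log2 fold change of 1.45, and had 85 and 77 against 75 and 66 in W22.

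GRMZM2G119823 (bHLH108 in the RefSeq table) shares its closest Arabidopsis match with *ZmbHLH116*. In W22 it had 31 and 26 counts under normal conditions and 431 and 434 under drought, and in *zmnf-ya1* 75 and 89 against 78 and 107. The log2 fold changes, as a description, were 4.06 in W22 and -0.04 in *zmnf-ya1*, so the mutant was above W22 under normal conditions and below it under drought for this gene as for *ZmbHLH116*. In DH4866 it had 2 and 2 counts against 66 and 56 under drought, a ratio of 30.7 with a counting interval of 11.7 to 114. The libraries labelled *ZmNF-YA1* OE had 17 and 12 counts under normal conditions, a ratio to DH4866 of 6.95 (interval 2.44 to 27.2), and 79 and 74 under drought. It had at most 5 counts in any library of the B104 set, where a difference was not detectable. Its FPKM was the lower of the pair in every group, and *ZmbHLH116* was 6.01 to 42.3 times as high in the 11 groups where bHLH108 was detected. The ratio of 6.01 was that of W22 under drought. The ratio of 42.3 was that of DH4866 under normal conditions and rests on the 2 and 2 counts of bHLH108 there. Ratios in the B104 set are as uncertain, for the same reason of few counts.

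Within the W22 set MYC4 (GRMZM2G049229), a bHLH factor of jasmonate signaling, was highest in W22 under drought and lowest in unstressed W22, like *ZmbHLH116*. Its counts in W22 were 437 and 387 without drought and 2011 and 1822 with it, with 798 and 738 against 831 and 852 in *zmnf-ya1*. As a description, its log2 fold change with drought was 2.36 in W22 and -0.09 in *zmnf-ya1*, without the fall of *ZmbHLH116* there. In DH4866 it had 472 and 430 counts against 488 and 466 under drought (log2 fold change 0.09, adjusted p = 0.351, edgeR), where *ZmbHLH116* rose by 2.31. In B104 it had 31 and 12 against 89 and 52, on the log2 scale a rise of 1.15 (adjusted p = 0.00285, edgeR). The MYC2-like gene GRMZM2G001930 had 873 and 796 counts in unstressed W22 and 2844 and 2575 under drought, against 1955 and 1777, then 1694 and 1688, in *zmnf-ya1*. Within the W22 set its mean CPM was highest in droughted W22 (126) and lowest in unstressed W22 (35.3). Between them lay unstressed (103) and then droughted (80.03) *zmnf-ya1*, the order also seen for *ZmbHLH116* in that set. Its drought fold changes on the log2 scale, as a description, were 1.84 in W22 and -0.36 in *zmnf-ya1*. They were -0.03 in B104 (adjusted p = 0.876, edgeR) and 0.44 in DH4866 (SE 0.09, adjusted p = 0.000851, edgeR), the latter under the limit of 1.

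Genes were then ordered by the likeness of their profile to that of *ZmbHLH116*. For 19791 genes tested in all 3 sets, log2 CPM was centred on the mean of each set, and Pearson's r was taken across the 24 libraries, which share conditions, genotypes and scaling. As a description, r had a median of -0.03 and exceeded 0.9 for 1 gene. That gene was GRMZM5G852338, annotated as myosin-11-like, with r = 0.91. Its changes were smaller than those of *ZmbHLH116*, with a log2 range of 1.39 in the W22 set, and counts of 132 and 168 in W22 under normal conditions against 317 and 313 under drought.

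GRMZM2G091540, annotated as an IAA-amino acid hydrolase, followed with r = 0.89 over all libraries and r = 0.996 in the 8 libraries of the W22 set. It had 33 and 46 counts in W22 under normal conditions, and 651 and 620 under drought, with 212 and 223 against 124 and 114 in *zmnf-ya1*. This is the order of groups seen for *ZmbHLH116* in the W22 set. JAZ proteins, the repressors of MYC2-type factors, were the annotation of 2 of the 10 genes. The share of genes so annotated among all genes compared was not counted, so no enrichment is claimed. GRMZM2G117513 (TIFY6 in the RefSeq table) had r = 0.88, with 3464 and 3483 counts in W22 under normal conditions and 7956 and 8111 under drought, and 4816 and 4878 against 3754 and 3773 in *zmnf-ya1*. GRMZM2G145412, annotated as a jasmonate ZIM domain protein, had r = 0.87, with 19 and 21 counts against 332 and 362 in W22. In *zmnf-ya1* it was higher under drought, with 130 and 145 against 212 and 245.

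The other genes among the 10 were GRMZM2G144483 and GRMZM5G814159 (both r = 0.88), annotated with a proteasome inhibitor and with nucleic acid binding proteins, GRMZM2G436020 (r = 0.87), placed in defense response, GRMZM2G301089 (r = 0.86), a putative HLH DNA-binding protein, GRMZM2G171852 (DOF22, r = 0.86) and GRMZM2G077632 (r = 0.86), annotated as a GTPase. GRMZM2G301089 had 42 and 45 counts in W22 under normal conditions and 423 and 413 under drought, but 204 and 169 against 213 and 250 in *zmnf-ya1*. By log2 CPM both *zmnf-ya1* drought libraries lay below both normal ones for 5 of the 10 genes, as for *ZmbHLH116*, above them for 1, and overlapped with them for 4, GRMZM2G301089 among these. The most opposite profiles were those of GRMZM2G070038 (r = -0.91), annotated as the flowering time protein FPA, GRMZM2G138342 (r = -0.90), an NAD kinase, and GRMZM2G022298 (r = -0.89), annotated as an F-box protein. Their log2 ranges in the W22 set were 0.75, 0.68 and 0.99, smaller than the log2 fold change of 3.48 of *ZmbHLH116* with drought in W22.

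**Figure D4:**
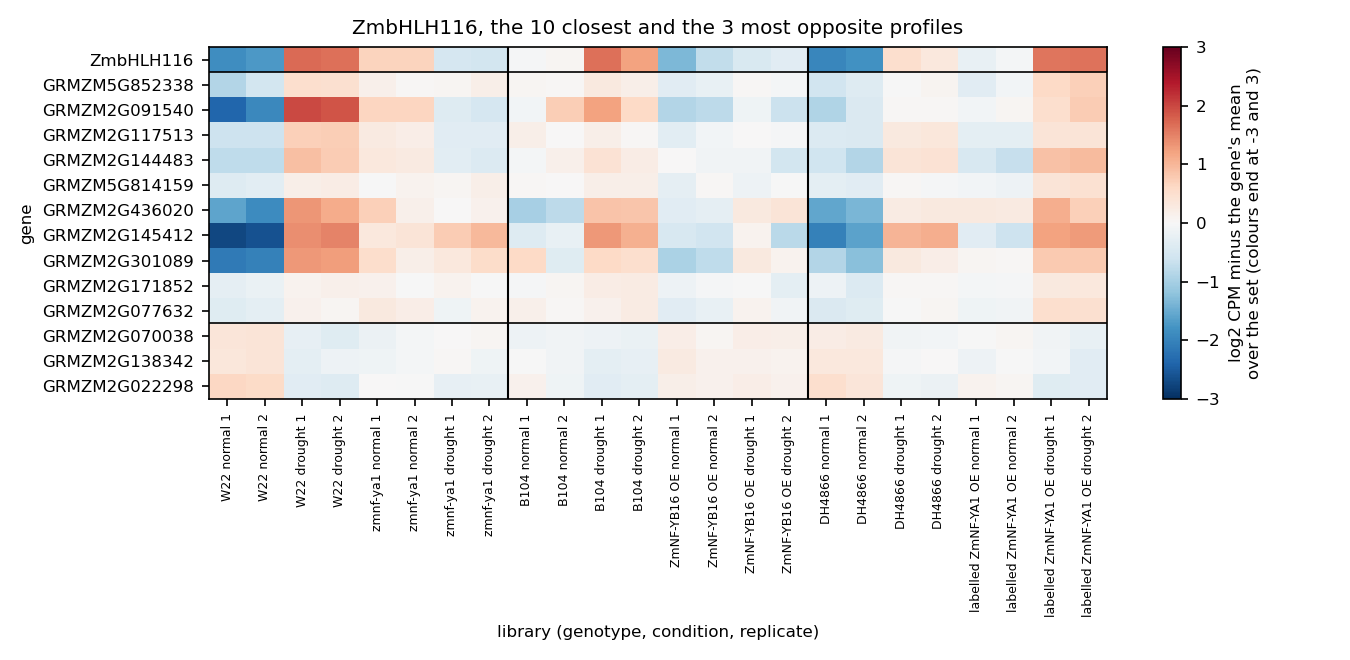
Log2 CPM of *ZmbHLH116*, the 10 genes of closest profile and the 3 of most opposite profile in the 24 libraries, each gene centred on its mean over the 8 libraries of a set (colour, red above and blue below that mean). *ZmbHLH116* runs from -1.96 in a DH4866 normal library to 1.69 in a W22 drought library, and most other genes have paler rows.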

How the data were processed

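The authors filtered reads with SOAPnuke, used Bowtie2 against the B73 V3 gene set and deposited, for each library, RSEM expected counts and FPKM. Genes with an FPKM under 0.01 were left out of the files, and an absent gene counted as 0. Groups came from the sample labels. *ZmbHLH116*, the comparisons and the lists were chosen with earlier results of these data known, and the deposited files give no genome position.

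Expected counts were rounded. Each set of 8 libraries had its own edgeR 4.0.16 fit in R 4.3.3 (filter by group, TMM, quasi-likelihood, 4 groups), and p-values were adjusted over the 24159, 21970 and 24604 genes tested in the W22, B104 and DH4866 sets. Called genes changed by over 1 on the log2 scale with adjusted p under 0.05. The biological coefficient of variation was 5.29%, 6.18% and 5.01%, and no replicate pair agreed within sampling noise. With 2 libraries a group, an exact permutation test of 1 gene cannot give a p under 0.333. Profiles used log2 CPM with a prior count of 2.

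The bHLH family was every gene whose deposited annotation names bHLH or basic helix-loop-helix. The named genes were ZmNF-YA1, bHLH108, MYC4, the MYC2-like gene, the 10 closest and 3 most opposite profiles and, for the drought contrast of each inbred, the 2 called family members that rose most and the 2 that fell most. RefSeq names matched 18580 identifiers. Alternatives were DESeq2 1.42.0, limma 3.58.1 on log2(FPKM + 1), RLE, library size alone, no filter, an adjusted p of at most 0.001, a replicate block, each library left out in turn and other measures of profile. A fuller family list, which adds genes named bHLH in the RefSeq table to give 79 others, was chosen after seeing the data. Same-numbered libraries did not deviate together (r from -0.02 to 0.08), so the model had no block. On simulated data with 200 genes changed by a log2 fold change of 2, edgeR recovered 200 in each set, with 0, 2 and 1 false calls in the W22, B104 and DH4866 sets. DESeq2 recovered 191, 197 and 195. The changed genes were drawn from those with higher expected counts. Every gene had the same spread and no drought effect was put in, so the recovery says little about genes with few reads. Python 3.11.15, numpy 2.4.6, pandas 2.3.3, scipy 1.17.1 and matplotlib 3.10.9 were used for the rest.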

Additional observations from a re-analysis of the deposited data

Results flagged for a closer look

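The drought response of *ZmbHLH116* took opposite directions in the 2 genotypes of the W22 set. Both W22 libraries were higher under drought and both *zmnf-ya1* libraries were lower, and the log2 responses differed by -4.68 (SE 0.10). The difference was not tested, because the study chose the gene from these libraries. In the DH4866 set the rise with drought was smaller in the libraries labelled *ZmNF-YA1* OE than in DH4866, by a log2 difference of -0.56 (SE 0.15; edgeR, adjusted p = 0.0190). The adjusted p was over 0.05 with DESeq2 (0.0819), with limma (0.0749) and in 5 of 8 fits that left out 1 library, and all 4 drought libraries lay above all normal libraries of their genotype.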

How the results depend on the processing

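The direction of *ZmbHLH116* was the same in all 15 contrasts under every alternative, and the calls in the DH4866 set were the same throughout. In the B104 set the call of *ZmNF-YB16* OE against B104 under normal conditions was lost at an adjusted p of at most 0.001 (log2 fold change -1.13), with DESeq2 (-1.14) and with limma (-0.80). It ran from -1.49 to -0.78 when 1 library was left out, with 3 of 8 such fits losing the call. The other calls of that set were kept, with drought in B104 from 1.26 to 1.71 and *ZmNF-YB16* OE against B104 under drought from -2.13 to -1.68. Drought in *ZmNF-YB16* OE, not a call, ran from 0.36 to 1.07 and the difference in response from -1.16 to -0.45.

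In the W22 set, values with library size alone were 3.33 for drought in W22, -0.97 for drought in *zmnf-ya1*, 2.07 for the mutant against W22 under normal conditions and -4.31 for the difference in response, since leaving TMM out shifts all genes by -0.14, 0.23, -0.40 and 0.37 in these contrasts. In the B104 set it shifts them by 0.29 and 0.25 in the drought contrasts of B104 and *ZmNF-YB16* OE. With limma on log2(FPKM + 1) the values of the W22 set, in the order above, were 3.21, -0.94, 1.97 and -4.16. That scale also has no TMM factors, and it understates changes of low values.

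Counts of family members that rose in W22 were 1, 1 and 0 of 19 at an adjusted p of at most 0.001, with DESeq2 and with limma, against 2. In *zmnf-ya1*, 2 rose with library size alone and 0 with limma, and 1 fell with limma. In B104, 0 fell with library size alone and with limma. In *ZmNF-YB16* OE, 0 fell at 0.001, with DESeq2 and with limma, and 1 with library size alone. In DH4866, 0 rose with limma, and 0, 1, 0 and 0 fell at 0.001, with no filter, with DESeq2 and with limma. In the libraries labelled *ZmNF-YA1* OE, 1 rose with library size alone and 0 with limma. Leaving out 1 library gave 1 to 2 and 2 to 3 genes (higher and lower) in W22, 1 to 2 and 3 in *zmnf-ya1*, 2 and 0 to 1 in B104, 2 and 0 to 2 in *ZmNF-YB16* OE, 1 to 2 and 0 to 3 in DH4866, and 1 to 3 and 0 to 1 in the labelled libraries. The fuller list gave 12 and 10 of 49 in W22, 4 and 7 of 49 in *zmnf-ya1* (8.16% and 14.3%, against 12.1% and 13.2% of all genes), 3 and 7 of 32 in B104, 4 and 7 of 32 in *ZmNF-YB16* OE (12.5% and 21.9%, against 11.3% and 11.9%), 9 and 3 of 48 in DH4866 and 9 and 2 of 48 in the labelled libraries (18.8% and 4.17%, against 12.2% and 12%). The cause of these changes was not tested.

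The replicate block changed no call of *ZmbHLH116*. It changed 2 family counts, from 0 to 1 gene lower under drought in the libraries labelled *ZmNF-YA1* OE and from 2 to 3 in DH4866. Replicate numbers were shared by label only.

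Of the 10 genes of closest profile, 8 remained among the 10 closest with 12 group means, 6 with log2(FPKM + 1), 6 with Spearman's rho and 2 with the W22 set alone. The 10 closest were among the 100 closest under the first 3 of these, and 4 of them with the W22 set alone.

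Depth limits the B104 set most, where *ZmbHLH116* had 11 to 116 counts a library.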
